A study of Mus musculus with 24 samples.

Results

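TRAV17, TRAV19 and TRAV21/DV12 are V gene segments of the mouse T cell receptor alpha locus, Tcra, and were chosen by name as 3 TRAV segments that lie close to the J segments. They are 3 of 117 V segments listed in the Tcra tables, and TRAV21/DV12 is also among the 15 V segments listed in the tables of the delta chain, Tcrd. T cell receptor transcripts of thymocytes, the developing T cells of the thymus, were profiled in Satb1 knockout (KO) mice and in wild-type (WT) mice, all on a C57BL/6 background and 4 to 12 weeks old. The labels name the knockout genotype Satb1-/-, the series design names it Satb1cKO, a conditional knockout, and the Cre driver is not given in the sources used here. There were 3 KO and 3 WT libraries for each chain. Every value is a percentage of the V to J joins listed in a library, so that a library sums to 100, and a rise of 1 segment lowers the share of others. Fewer cells with a join and less transcript per cell cannot be told apart in these bulk libraries.

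An alpha chain is made by joining 1 of many V segments to 1 of many J segments in developing thymocytes that already carry a beta chain. The first joins tend to link V segments at the near end of the V array to J segments at the 5′ end of the J array, and later joins on the same chromosome replace them with more distant V segments and more 3′ J segments. The delta chain genes lie inside the same locus, between the TRAV segments and the TRAJ segments, and are deleted by an alpha join. Segments with DV in the name, TRAV21/DV12 among them, can be used by both chains. Satb1 is a chromatin-organising protein of the thymocyte nucleus. It is not measured in these tables, so the genotype labels could not be checked against it, and no marker of a cell type other than receptor segments is listed.

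On chromosome 14 of the GRCm38 build all 3 genes lie on the plus strand. TRAV17 spans chr14:53806639-53807115, which ends 350.2 kb before TRAJ58, the first TRAJ segment listed. TRAV19 spans chr14:53845234-53845827 and ends 311.5 kb before TRAJ58. TRAV21/DV12 spans chr14:53875984-53876752 and ends 280.5 kb before it. The second exon of each gene, which encodes the V domain and ends where the V segment is cut and joined, is shown because these are the ends that met the J segments. The sequences are GENCODE M21 transcripts at chr14:53806821-53807115, chr14:53845528-53845827 and chr14:53876465-53876752, and capitals mark the bases from the last in-frame cysteine codon, where the third complementarity-determining region starts, to the end of the exon. Of the TRAV19 exon the last 300 bases are shown.

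TRAV17: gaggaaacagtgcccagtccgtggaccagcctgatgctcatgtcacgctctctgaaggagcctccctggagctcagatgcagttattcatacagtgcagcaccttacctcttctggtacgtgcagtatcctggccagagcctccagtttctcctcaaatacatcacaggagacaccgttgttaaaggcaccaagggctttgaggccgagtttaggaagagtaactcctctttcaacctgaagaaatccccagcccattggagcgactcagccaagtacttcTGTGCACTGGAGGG
TRAV19: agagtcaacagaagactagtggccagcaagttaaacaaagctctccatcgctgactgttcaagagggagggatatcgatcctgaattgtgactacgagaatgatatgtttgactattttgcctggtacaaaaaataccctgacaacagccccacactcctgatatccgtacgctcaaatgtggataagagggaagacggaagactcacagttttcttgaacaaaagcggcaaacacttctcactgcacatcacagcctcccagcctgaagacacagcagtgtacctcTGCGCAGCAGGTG
TRAV21/DV12: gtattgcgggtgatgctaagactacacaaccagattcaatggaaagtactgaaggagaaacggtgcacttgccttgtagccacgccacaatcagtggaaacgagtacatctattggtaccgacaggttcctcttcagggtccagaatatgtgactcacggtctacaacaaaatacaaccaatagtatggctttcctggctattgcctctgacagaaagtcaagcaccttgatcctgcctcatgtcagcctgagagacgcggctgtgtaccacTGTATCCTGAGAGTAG

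The exons are 295, 306 and 288 bases long, and 14, 13 and 16 bases follow from the start of the cysteine codon. The 3 segments are unlike each other in sequence. Identity in a global alignment was 54.3% between TRAV17 and TRAV19, 54.1% between TRAV17 and TRAV21/DV12, and 52.2% between TRAV19 and TRAV21/DV12. Among 113 other V segments compared, the closest was TRAV9N-4 to TRAV17 at 74.7%, TRAV14D-1 to TRAV19 at 69.2% and TRAV2 to TRAV21/DV12 at 64.1%, so none of the 3 has a near-identical copy among those compared.

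The J segments at the 5′ end of the array that carried the called joins of TRAV21/DV12 and TRAV19 follow. They are in their order along chromosome 14, with the F-G-X-G motif of the J segment in capitals. The motif was searched on the coding strand and found in 40 of the 43 J segments listed, or 93%.

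TRAJ58: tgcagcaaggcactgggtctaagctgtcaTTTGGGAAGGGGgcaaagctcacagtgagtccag
TRAJ57: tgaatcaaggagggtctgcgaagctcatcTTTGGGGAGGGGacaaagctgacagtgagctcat
TRAJ56: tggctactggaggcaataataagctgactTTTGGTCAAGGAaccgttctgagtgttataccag
TRAJ53: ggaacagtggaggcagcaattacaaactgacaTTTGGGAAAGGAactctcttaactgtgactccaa
TRAJ52: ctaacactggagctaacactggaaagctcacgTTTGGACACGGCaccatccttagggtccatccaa
TRAJ50: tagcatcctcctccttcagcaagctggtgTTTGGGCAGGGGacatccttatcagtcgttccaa
TRAJ49: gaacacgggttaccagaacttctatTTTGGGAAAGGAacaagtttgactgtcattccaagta

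The resolution of the libraries differed and was coarsest in KO replicates 2 and 3. The smallest share above 0 in a Tcra library was 0.0180%, 0.0593% and 0.117% in KO replicates 1, 2 and 3, against 0.0158%, 0.0157% and 0.0241% in WT replicates 1, 2 and 3. The values are percentages without counts, and no depth was worked out from them. Pairs above 0 numbered 1380, 555 and 374 in KO replicates 1, 2 and 3, against 1978, 1969 and 1573 in WT. KO replicate 1 stood apart from the other KO libraries, with a mean J number over all V segments of 44.5, against 48.3 and 48.6 in KO replicates 2 and 3. Whether replicates came from different mice is not stated in the labels, so p-values measure only the spread between these libraries.

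The first comparison was of the share that each V segment held in the Tcra libraries. TRAV21/DV12 rose in KO thymocytes, where it was the most used V segment in replicates 1 and 3. It held 11.5%, 7.65% and 15.0% of KO replicates 1, 2 and 3, against 1.63%, 1.84% and 2.36% of WT replicates 1, 2 and 3. Every KO library lay above every WT library, and the lowest KO share was over 3 times the highest WT share. The means were 11.4% ± 3.68 in KO and 1.94% ± 0.374 in WT (SD, n = 3 each). On the scale of log2(percent + 0.0157) the difference was 2.51 with a standard error of 0.51 (limma, Benjamini-Hochberg adjusted p = 0.0412 over 84 V segments). Ranked by share among V segments, TRAV21/DV12 stood at places 1, 4 and 1 in KO and 17, 17 and 12 in WT.

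TRAV19 held 4.08%, 1.07% and 2.81% of the KO libraries, against 0.634%, 0.676% and 0.963% of the WT libraries. The groups did not overlap, but KO replicate 2 lay only just above the highest WT library. The means of 2.65% ± 1.51 in KO and 0.758% ± 0.179 in WT (SD, n = 3 each) gave a log2 difference of 1.61 ± 0.63 (SE) that was not called (limma, adjusted p = 0.152). TRAV17 held 2.58%, 3.86% and 3.17% of the KO libraries, against 1.71%, 1.87% and 1.76% of the WT libraries. The WT shares of TRAV17 lay close together and all KO libraries were above them. Its means of 3.20% ± 0.638 in KO and 1.78% ± 0.0827 in WT (SD, n = 3 each) gave a log2 difference of 0.82 ± 0.47 (SE), which was not called (limma, adjusted p = 0.279). Both segments ranked higher among V segments in every KO library than in any WT library. TRAV17 ranked 11, 7 and 7 in the KO libraries and 16, 15 and 17 in the WT libraries, while TRAV19 ranked 7, 23 and 10 in KO and 44, 45 and 36 in WT. TRAV17 was used more than TRAV19 in all 3 WT libraries and in KO replicates 2 and 3, while in KO replicate 1 TRAV19 was used more than TRAV17.

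**Figure D1:**
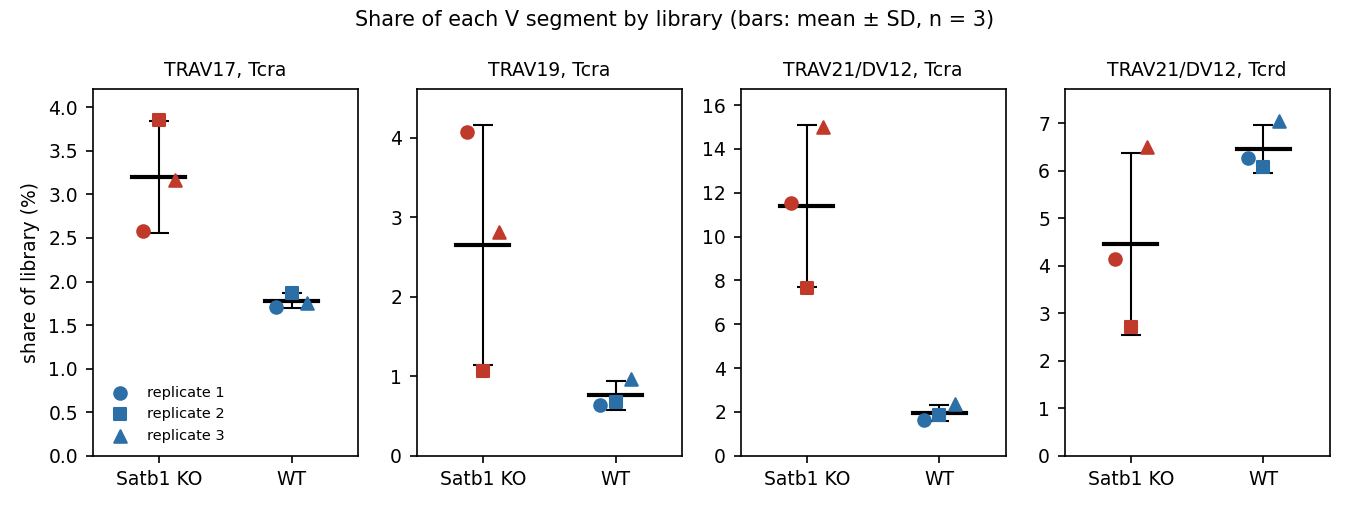
Share in percent (vertical axes, each from 0 and with its own scale) of TRAV17, TRAV19 and TRAV21/DV12 in the Tcra libraries and of TRAV21/DV12 in the Tcrd libraries, KO left and WT right; points are libraries and bars the mean ± SD, n = 3. In Tcra every KO point lies above every WT point, while in Tcrd the TRAV21/DV12 points of KO (2.71% to 6.50%) and WT (6.07% to 7.04%) overlap.

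Of all 84 V segments tested, 4 were called, or 4.76%, and 3 of these were higher in KO (3.57%) and 1 lower. All 3 segments described here passed the filter of a mean share of 0.1%, and 1 of them, TRAV21/DV12, was called. All KO libraries lay above all WT libraries for the 3 segments and for 7 of all 84 V segments (8.33%), while for 32.1% of the 84 all KO libraries lay below all WT libraries. Their log2 differences ranked 3rd, 4th and 8th from the highest among the 84, while the median over all 84 was -0.73. Each library was also centred on its mean log share, which moved that median to 0.20 and left 3 calls, all higher. The differences were then 3.43 for TRAV21/DV12 (limma, adjusted p = 0.00817), 2.53 for TRAV19 (adjusted p = 0.0502) and 1.75 for TRAV17 (adjusted p = 0.142). Centring moves every difference of a comparison by the same amount. The mean log share it uses depends on the pseudocount wherever a share is listed at 0. The part of such zeros in the centred calls was not tested. The call of TRAV21/DV12 was lost when any 1 WT library was left out (limma, adjusted p = 0.201, 0.206 and 0.141 without WT replicates 1, 2 and 3) and when each V-J pair was counted once, where the log2 difference was 1.40. Without KO replicate 1 the difference was 2.47 (adjusted p = 0.0418), and without both libraries numbered 1 it was 2.35 (adjusted p = 0.191).

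The 3 segments stand in a row along the locus, and the log2 difference was larger at each step from TRAV17 to TRAV19 and TRAV21/DV12, though the steps themselves were not tested. Of the 5 listed V segments next upstream of TRAV17, TRAV16 and TRAV13-5 were listed at 0 in all 6 libraries, and 3 were tested. TRAV13-4-DV7 had a log2 difference of 0.90, TRAV14-3 of 0.62 and TRAV3-4 of -0.13, and none was called. On the other side, 7 listed V segments lie between TRAV17 and the J segments, of which 5 were tested and 3 were called higher, TRAV21/DV12 itself with the delta segments TRDV1 (log2 difference 2.74, limma adjusted p = 0.0412) and TRDV2-2 (log2 difference 3.74, limma adjusted p = 0.00758). TRDV2-1 had 1.52 and was not called, and TRDV4 and TRDV5, which lie nearest to the J segments, were listed at 0 in the Tcra libraries. The 5 tested include TRAV19 and TRAV21/DV12 themselves. Their median log2 difference of 2.51 is the value of TRAV21/DV12, so it is no separate measure of the neighbours. The 8 tested segments with DV in the name had a median of -0.17, with 1 called, TRAV21/DV12 itself. Among the 5 TRDV segments 3 were tested and 2 called, with a median of 2.74.

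**Figure D2:**
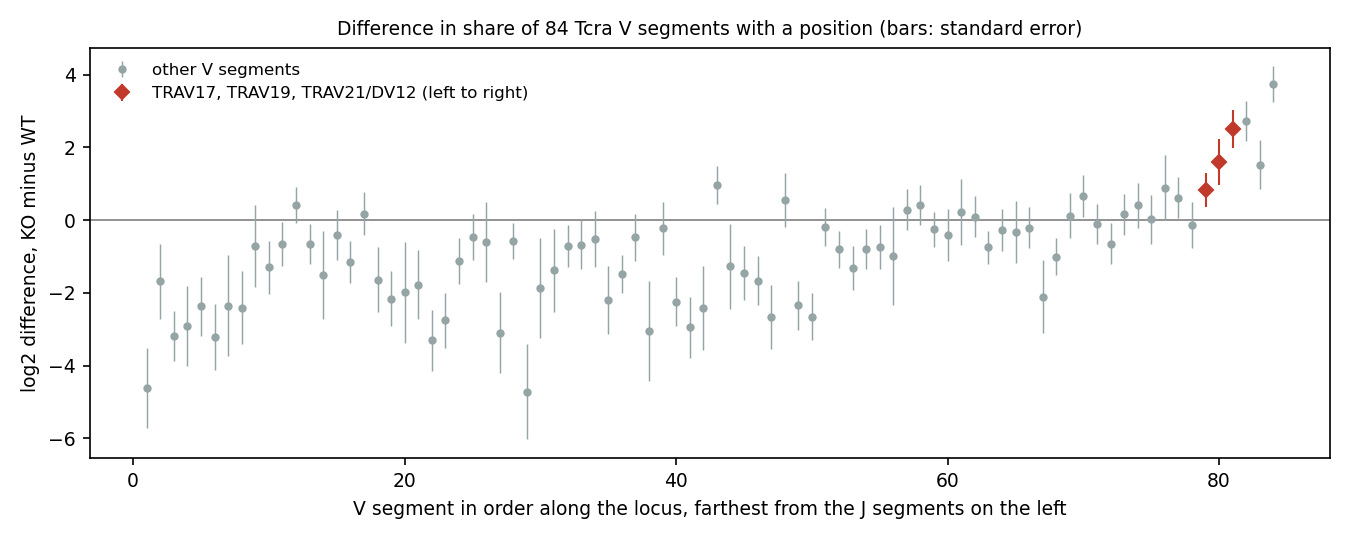
Difference in log2(percent + 0.0157), KO minus WT, for the 84 tested Tcra V segments in order along the locus, with the segment farthest from the J segments on the left; bars are standard errors. TRAV17, TRAV19 and TRAV21/DV12, in red, stand at 0.82, 1.61 and 2.51 near the right end, beside 3 TRDV segments at 1.52 to 3.74.

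The second comparison was of the J segments to which each V segment was joined. A J profile was reduced to its mean J number, the average TRAJ number weighted by share, where a higher number lies nearer to the V segments. The 3 segments joined the 5′ end of the J array in both genotypes. The means were 48.2 ± 2.11 in KO and 44.7 ± 2.65 in WT for TRAV17, 51.2 ± 1.30 in KO and 48.2 ± 0.660 in WT for TRAV19, and 49.2 ± 1.07 in KO and 46.1 ± 1.90 in WT for TRAV21/DV12 (SD, n = 3 each). Among the 38 V segments tested, TRAV17, TRAV19 and TRAV21/DV12 ranked 12, 3 and 9 in KO and 5, 3 and 4 in WT, where only TRDV2-2 and TRDV1 stood higher.

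In KO thymocytes the mean J numbers of the 3 segments were 2.99 to 3.53 higher, and none of these differences was called. TRAV17 had mean J numbers of 46.6, 47.5 and 50.6 in the KO libraries, against 47.1, 45.2 and 41.8 in the WT libraries. The genotypes overlapped. The difference was 3.53 ± 2.24 (SE; limma, adjusted p = 0.176 over 38 V segments). TRAV19 had 49.8, 52.3 and 51.4 in the KO libraries, against 47.5, 48.3 and 48.8 in the WT libraries, and here all KO libraries lay above all WT libraries. Its difference was 2.99 ± 1.81 (SE; limma, adjusted p = 0.167). TRAV21/DV12 had 48.2, 49.0 and 50.3 in the KO libraries, against 47.6, 46.7 and 44.0 in the WT libraries, again without overlap. Its difference was 3.10 ± 1.94 (SE; limma, adjusted p = 0.176). Of all 38 V segments 76.3% had all KO libraries above all WT libraries.

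By contrast, 28 of the 38 V segments tested were called higher in KO, or 73.7%. The other 35 had a median of 46.3 in KO and 30.3 in WT, and their median difference was 13.2. The comparison of the 2 kinds of segment was tested on the mean J number of a V segment minus that of all other V segments of the same library, a measure chosen after the data were seen. TRAV17 stood 1.08 ± 1.70 above the other V segments in KO and 14.4 ± 4.17 above them in WT (SD, n = 3 each), a difference of -13.3 (limma, adjusted p = 0.00642). For TRAV19 the values were 4.11 ± 1.31 in KO and 17.8 ± 1.19 in WT, a difference of -13.7 (limma, adjusted p = 0.00227). For TRAV21/DV12 they were 2.31 ± 1.72 in KO and 15.9 ± 3.42 in WT, a difference of -13.5 (limma, adjusted p = 0.00424). Every KO library lay below every WT library for all 3 segments, and for 11 of the 38 (28.9%).

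These 3 were among 6 of 38 V segments called lower on this measure (15.8%), with TRDV1, TRDV2-2 and TRAV4D-4, so that the result is not limited to them. The TRAJ numbers listed end at 58, which caps this measure. In KO the V segments other than TRAV17, TRAV19 or TRAV21/DV12 had mean J numbers of 47.13, 47.05 and 46.88. With the WT distances of 14.4, 17.8 and 15.9 added to these, each segment would pass 58. A lower KO mean of these 3 on this measure was thus fixed in advance, called or not. The part of this upper end in the size of the differences was not tested. Under equal weights for all V-J pairs, each counted once, the differences were -4.93, -6.48 and -3.73 for TRAV17, TRAV19 and TRAV21/DV12, and none was called.

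**Figure D3:**
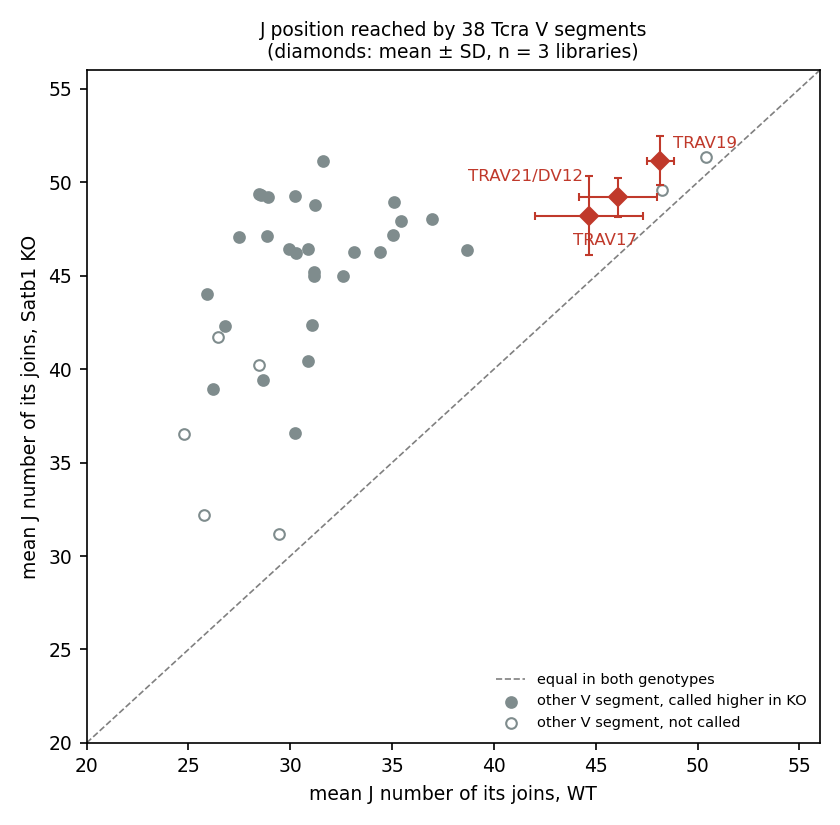
Mean J number of the joins of 38 Tcra V segments, KO on the vertical and WT on the horizontal axis, both without unit; diamonds are TRAV17, TRAV19 and TRAV21/DV12 with the SD over 3 libraries. Most other V segments lie far above the dashed line of equal values, while the 3 diamonds lie 2.99 to 3.53 J numbers above it.

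The same pattern appeared in the share of joins to TRAJ58, TRAJ57 and TRAJ56, the 3 J segments nearest to the V segments. These took 44.6% ± 7.96 of the TRAV21/DV12 joins in KO and 43.5% ± 7.87 in WT, 43.0% ± 3.64 of the TRAV19 joins in KO and 45.7% ± 7.80 in WT, and 36.4% ± 5.41 of the TRAV17 joins in KO and 34.5% ± 5.01 in WT (SD, n = 3 each). For the sum of all other V segments they took 33.9% ± 4.70 of joins in KO and 7.64% ± 0.760 in WT. These shares were not tested. The J profile of each segment was also set against that of all other V segments by the total variation distance, the share of joins that would have to be moved to make the profiles equal. It was 35.8% ± 1.57 in KO and 56.6% ± 1.81 in WT for TRAV17, 34.5% ± 12.9 in KO and 69.4% ± 2.88 in WT for TRAV19, and 27.7% ± 1.57 in KO and 57.9% ± 10.8 in WT for TRAV21/DV12. All KO libraries lay below all WT libraries for each segment, and for 5 of the 38 V segments of the J number test (13.2%), these 3 included. The median distance of the other 35 was 46.1% in KO and 34.8% in WT. For each of the 3 segments a two-sided exact permutation test gave p = 0.1, which is the smallest p of this design, and 0.175 after adjustment over 7 single values.

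**Figure D4:**
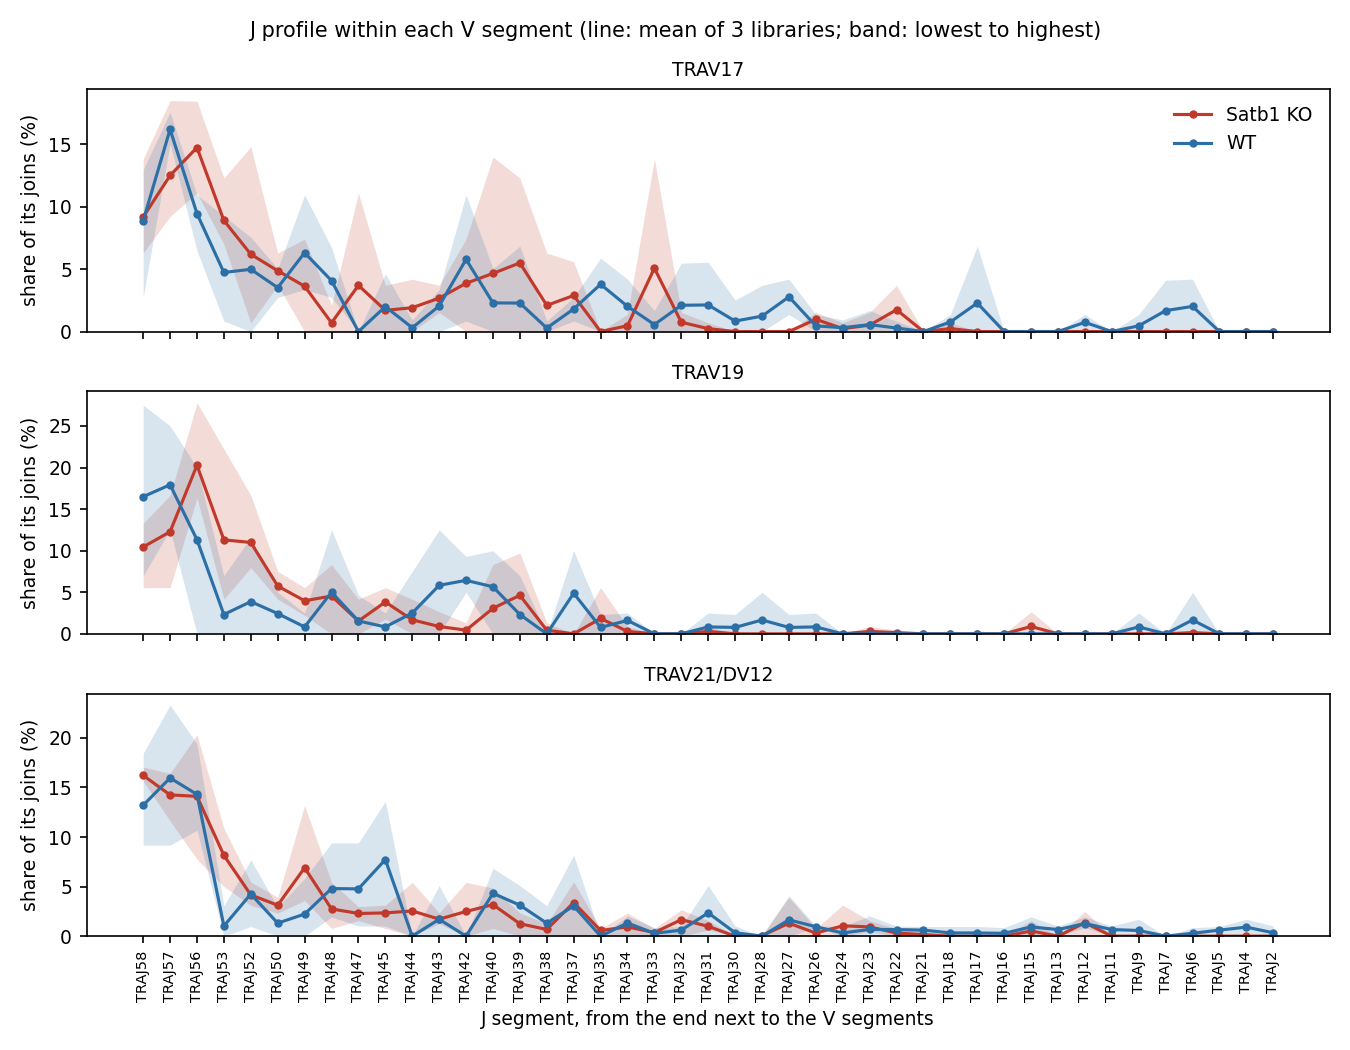
Share in percent of the joins of TRAV17, TRAV19 and TRAV21/DV12 that used each of the 43 TRAJ segments, from TRAJ58 on the left to TRAJ2 on the right; lines are means of 3 KO (red) and 3 WT (blue) libraries and bands run from the lowest to the highest library. In both genotypes the joins are concentrated at the left, in TRAJ58, TRAJ57 and TRAJ56.

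The number of J segments joined overlapped between the genotypes for all 3 segments. TRAV21/DV12 used 29, 24 and 19 in the KO libraries, against 24, 23 and 26 in the WT libraries (exact permutation p = 1). TRAV17 used 23, 15 and 12 J segments in KO, against 22, 24 and 20 in WT (exact permutation p = 0.3). TRAV19 used 22, 9 and 13 in KO, against 12, 15 and 11 in WT (exact permutation p = 0.8). The resolution was coarsest in KO replicates 2 and 3. When only pairs at or above the smallest share of KO replicate 3 were counted, the differences for TRAV17 and TRAV21/DV12 changed sign. They were then higher in KO, so the numbers for these segments depend on the resolution.

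The shares were then split into 6 windows of the J array, of which the first holds TRAJ48 and higher numbers. TRAV21/DV12 was called higher in the first 3 windows of the shares as deposited. With TRAJ48 and higher it held 7.31%, 5.46% and 11.1% of the KO libraries, against 1.05%, 1.07% and 1.16% of the WT libraries (log2 difference 2.79, limma adjusted p = 0.0140 over 223 combinations of V segment and window). With TRAJ47 to TRAJ38 it held 2.20%, 1.30% and 1.99% of the KO libraries, against 0.285%, 0.551% and 0.505% of the WT libraries (log2 difference 2.02, limma adjusted p = 0.0397). With TRAJ37 to TRAJ29 it held 1.12%, 0.534% and 1.06% of the KO libraries, against 0.0951%, 0.0315% and 0.385% of the WT libraries (log2 difference 2.77, limma adjusted p = 0.0295). All KO libraries lay above all WT libraries in these 3 windows and in the next 2, and in 36 of all 223 combinations (16.1%).

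With TRAJ28 to TRAJ18 it averaged 0.479% ± 0.210 in KO and 0.106% ± 0.0764 in WT (SD, n = 3 each; log2 difference 2.09, limma adjusted p = 0.0504, and 0.0330 with equal replicate numbers as a block). With TRAJ17 to TRAJ10 it averaged 0.214% ± 0.0869 in KO and 0.0768% ± 0.0321 in WT (log2 difference 1.29, limma adjusted p = 0.158). With centring both of these windows were called, at 3.31 for TRAJ28 to TRAJ18 (limma, adjusted p = 0.00853) and 2.51 for TRAJ17 to TRAJ10 (limma, adjusted p = 0.0203). The WT mean with TRAJ17 to TRAJ10 was under 0.1%, so that this window entered the test through its KO shares. Its log2 difference was -0.24 with each pair counted once. In the last window, TRAJ9 and lower, TRAV21/DV12 was listed at 0 in all KO libraries and held 0.0158%, 0.0944% and 0.0481% of the WT libraries. The window took 2.71% ± 2.16 of the TRAV21/DV12 joins in WT (SD, n = 3). Its mean share was too low for the test. The WT shares reach above the smallest share above 0 of KO replicates 1 (0.0180%) and 2 (0.0593%) and lie below that of KO replicate 3 (0.117%). Over all 223 combinations 89 were called (39.9%), but 15 of these were higher in KO (6.73%) and 74 lower (33.2%), with a median log2 difference of -1.59. With centring the median was -0.37, and 46 were called higher and 38 lower. Of the 4 windows called for TRAV21/DV12 and TRAV19, 0 were called without WT replicate 1 or 2, 1 without WT replicate 3, 2 without KO replicate 1, 1 without both libraries numbered 1, and 0 with each pair counted once.

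TRAV19 held 3.05%, 0.949% and 2.11% of the KO libraries with TRAJ48 and higher, against 0.396%, 0.393% and 0.578% of the WT libraries. The groups did not overlap and the window was called (log2 difference 1.99, limma adjusted p = 0.0497), though not without KO replicate 1 (adjusted p = 0.0587), KO replicate 3 (adjusted p = 0.0656) or any 1 WT library (adjusted p = 0.104 to 0.159). Within its own joins this window took 74.8%, 88.9% and 75.0% in KO, against 62.5%, 58.1% and 60.0% in WT. With TRAJ47 to TRAJ38 its mean was 0.513% ± 0.394 in KO and 0.185% ± 0.00961 in WT, not called (limma, adjusted p = 0.506). In the 4 more distant windows it was rare and not tested, with means of 0.0438%, 0.0180%, 0.0361% and 0.00601% in KO and 0.0716%, 0.0293%, 0% and 0.0158% in WT.

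TRAV17 was called in no window as deposited. With TRAJ48 and higher it held 1.30%, 2.37% and 2.23% of the KO libraries, against 1.09%, 1.15% and 0.866% of the WT libraries (log2 difference 0.88, limma adjusted p = 0.300). With TRAJ47 to TRAJ38 it held 0.956%, 0.593% and 0.821% of the KO libraries, against 0.269%, 0.189% and 0.337% of the WT libraries (log2 difference 1.53, limma adjusted p = 0.0896). The groups did not overlap in either window. With centring, which raised the differences of all windows by the same amount, both were called. They then stood at 2.09 (limma, adjusted p = 0.0442) for TRAJ48 and higher and 2.75 (limma, adjusted p = 0.0134) for TRAJ47 to TRAJ38. With TRAJ37 to TRAJ29 the means were 0.321% ± 0.361 in KO and 0.238% ± 0.0781 in WT, and with TRAJ28 to TRAJ18 they were 0.122% ± 0.0531 in KO and 0.114% ± 0.0368 in WT. In the 2 windows from TRAJ17 on it was listed at 0 in all KO libraries, against means of 0.0534% and 0.0742% in WT, which lie above the smallest share above 0 of KO replicate 1 and below that of KO replicate 3.

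When the V segments were compared within the joins to TRAJ48 and higher alone, which holds the shift of the whole library along the J array, none of the 3 was called. TRAV21/DV12 held 13.1%, 7.99% and 16.6% of these joins in the KO libraries, against 5.17%, 5.98% and 5.78% in the WT libraries. The KO libraries all lay above the WT libraries, as for 9.52% of the 42 V segments tested, but the log2 difference of 1.09 was not called (limma, adjusted p = 0.175 over 42 V segments). TRAV19 held 3.33% ± 2.04 in KO and 2.35% ± 0.483 in WT (SD, n = 3 each; limma, adjusted p = 0.775). TRAV17 held 2.33%, 3.48% and 3.32% of these joins in the KO libraries, against 5.40%, 6.42% and 4.33% in the WT libraries, so that here all KO libraries lay below all WT libraries, as for 23.8% of the 42 (log2 difference -0.82, limma adjusted p = 0.307). Of the 42 V segments 4 were called (9.52%), 1 higher and 3 lower (7.14%), and the median log2 difference was -0.41. With centring the median was 0.25, 3 were called higher and 3 lower, and TRAV21/DV12 was called (1.75, limma adjusted p = 0.0499) while TRAV17 stood at -0.17.

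The joining ratio divides the share of a V segment with a window by the product of the shares of that V segment and that window in the library. For TRAJ48 and higher the log2 difference of this ratio was -1.61 for TRAV17, -1.22 for TRAV19 and -1.38 for TRAV21/DV12 (limma, adjusted p = 0.152, 0.188 and 0.152). This window took 63.8% of all joins in KO and 19.4% in WT, which caps the ratio lower in KO. In WT it took 58.2%, 60.2% and 57.1% of the joins of the 3 segments, a ratio above the KO cap. A lower mean ratio of these 3 in KO was thus fixed in advance, called or not. For TRAV21/DV12 the differences were 1.45 with TRAJ37 to TRAJ29, 1.57 with TRAJ28 to TRAJ18 and 1.46 with TRAJ17 to TRAJ10 (limma, adjusted p = 0.499, 0.240 and 0.240). No combination was called among 223 (0%), while 22 had an unadjusted p under 0.05. With the larger pseudocount 3 were called, all lower, among them TRAJ48 and higher with TRAV17 (-1.39, limma adjusted p = 0.0206) and with TRAV21/DV12 (-1.17, limma adjusted p = 0.0350).

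Single V-J pairs were compared last in the Tcra libraries. TRAV21/DV12 rose with 7 J segments, TRAV19 with 3 and TRAV17 with none, and the J segments printed above were chosen because they carried these calls. All 3 called TRAV19 pairs and 4 of the 7 called TRAV21/DV12 pairs had a WT mean under 0.1% and so entered the test through their KO shares. The TRAV21/DV12 pair with TRAJ58 held 1.84%, 1.30% and 2.34% of the KO libraries, against 0.301%, 0.220% and 0.217% of the WT libraries (log2 difference 2.79, limma adjusted p = 0.0202 over 202 pairs). With TRAJ57 it held 1.70%, 0.890% and 2.46% of the KO libraries, against 0.380%, 0.283% and 0.217% of the WT libraries (log2 difference 2.38, limma adjusted p = 0.0309). With TRAJ56 it held 1.64%, 0.593% and 3.05% of the KO libraries, against 0.174%, 0.236% and 0.457% of the WT libraries (log2 difference 2.36, limma adjusted p = 0.0447). These 3 pairs were already the most used TRAV21/DV12 pairs of the WT libraries by their mean.

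The pair of TRAV21/DV12 with TRAJ53 held 0.577%, 0.830% and 1.29% of the KO libraries, against 0%, 0% and 0.0722% of the WT libraries (limma, adjusted p = 0.00644). With TRAJ49 the shares were 0.415%, 1.01% and 0.586% in KO, against 0.0951%, 0.0157% and 0% in WT (limma, adjusted p = 0.0165). The pairs with TRAJ50 (0.366% ± 0.163 in KO and 0.0239% ± 0.0238 in WT; limma, adjusted p = 0.0202) and TRAJ52 (0.503% ± 0.295 in KO and 0.0846% ± 0.0637 in WT; limma, adjusted p = 0.0430) were called too. TRAV19 with TRAJ56 held 0.668%, 0.297% and 0.469% of the KO libraries, against 0.127%, 0.0944% and 0% of the WT libraries (log2 difference 2.90, limma adjusted p = 0.0377). Its pairs with TRAJ53 (0.220% ± 0.0959 in KO and 0.0157% ± 0.0272 in WT; limma, adjusted p = 0.0205) and TRAJ52 (0.246% ± 0.0741 in KO and 0.0262% ± 0.0454 in WT; limma, adjusted p = 0.0226) were each listed above 0 in WT replicate 2 alone among the WT libraries. In these 10 pairs, chosen by their call, every KO library lay above every WT library, as in 37.6% of all 202 pairs tested. Some of these KO shares were at or near the limit of resolution. TRAV19 with TRAJ53 held 0.117% of KO replicate 3, the smallest share above 0 in that library. The highest WT share of this pair was 0.0472%, so any listed join in KO replicate 3 would have lain above it.

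The most used pairs of TRAV19 in WT did not pass the test. With TRAJ58 TRAV19 held 0.541%, 0.0593% and 0.352% of the KO libraries, against 0.0951%, 0.0472% and 0.265% of the WT libraries, and with TRAJ57 it held 0.595%, 0.0593% and 0.469% in KO, against 0.0792%, 0.110% and 0.241% in WT. KO replicate 2 was low in both pairs and lay within the WT range with TRAJ58 and below it with TRAJ57. For TRAV17, the pair with TRAJ57 averaged 0.398% ± 0.171 in KO and 0.288% ± 0.0204 in WT, and the pair with TRAJ56 averaged 0.481% ± 0.200 in KO and 0.169% ± 0.0509 in WT (limma, adjusted p = 0.128). Its pair with TRAJ53 averaged 0.296% ± 0.157 in KO and 0.0821% ± 0.0719 in WT (limma, adjusted p = 0.0906), the one with TRAJ58 0.310% ± 0.197 in KO and 0.158% ± 0.0957 in WT, and the one with TRAJ52 0.202% ± 0.237 in KO and 0.0895% ± 0.0778 in WT.

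Over all 202 pairs tested 72 were called (35.6%), 46 of them higher (22.8%) and 26 lower, with a median log2 difference of 1.30. With centring the median was 0.60, 9 were called higher and 27 lower, and 3 of the 10 called pairs described above were called, those of TRAV21/DV12 with TRAJ53, TRAJ50 and TRAJ49. Of 43 possible pairs each, 16 of TRAV21/DV12 were tested and 7 called higher, 5 of TRAV19 were tested and 3 called higher, and 10 of TRAV17 were tested and 0 called. Of the TRAV21/DV12 pairs tested 4 had a WT mean of at least 0.1%, and 3 of these were called, while for TRAV19 it was 2 with 0 called and for TRAV17 5 with 0 called. Of the 10 called pairs of these V segments, 3 were called without KO replicate 2 and also without WT replicate 1, 2 or 3, 0 with a pseudocount 10 times smaller, and 1 without both libraries numbered 1.

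The V segments whose shares ran most like each of the 3 over the 6 libraries were found by the root mean square difference of centred log2 shares among 83 others. For TRAV21/DV12 these were TRAV19 (0.60), TRDV1 (0.61) and TRDV2-2 (0.84). For TRAV19 they were TRAV4-4-DV10 (0.55), TRAV21/DV12 (0.60) and TRDV2-1 (0.63), and for TRAV17 TRAV16N (0.27), TRAV7D-5 (0.29) and TRAV7-5 (0.42), which lie farther from the J segments. By the total variation distance of J window profiles in WT, the 3 nearest of each were the other two and TRDV1, at distances of 6.27% to 14.2%. In KO the nearest profiles were those of TRAV12-1 (1.78%), TRAV13-1 (1.98%) and TRDV1 (5.01%) for TRAV21/DV12, of TRDV2-2 (4.34%), TRAV6-5 (6.29%) and TRAV12D-1 (6.82%) for TRAV19, and of TRAV7-5 (6.31%), TRAV16N (7.09%) and TRAV16D-DV11 (7.36%) for TRAV17. None of the 3 was among the 3 nearest of another in KO. The points share libraries and resolution, and no test was made.

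TRAV21/DV12 was also compared in the delta chain, where it is joined through D segments to TRDJ segments. Its share was not called there. It held 4.14%, 2.71% and 6.50% of the KO Tcrd libraries, against 6.26%, 6.07% and 7.04% of the WT Tcrd libraries, and the groups overlapped. The means were 4.45% ± 1.92 in KO and 6.46% ± 0.513 in WT (SD, n = 3 each), a difference in log2(percent + 0.0128) of -0.62 ± 0.42 (SE; limma, adjusted p = 0.528 over 13 V segments). No V segment was called in Tcrd (0%), and 0 had an unadjusted p under 0.05. By share TRAV21/DV12 ranked 5, 6 and 3 in the KO libraries and 6, 6 and 5 in the WT libraries.

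Nearly all TRAV21/DV12 joins in Tcrd used TRDJ1, the main J segment of the delta chain here. TRDJ1 took 96.0%, 97.6% and 98.8% of them in KO, against 99.0%, 100% and 99.1% in WT (exact permutation p = 0.1, the smallest possible, and 0.175 adjusted over 7 single values). Over all V segments TRDJ1 took 96.7% ± 2.50 in KO and 98.2% ± 0.523 in WT. The V segments of at least 5% in Tcrd included TRDV2-2, which held 65.6% ± 7.30 in KO and 53.9% ± 3.54 in WT, TRDV5 with 10.1% ± 3.62 in KO and 10.2% ± 3.08 in WT, and TRDV1 with 7.44% ± 1.81 in KO and 9.84% ± 1.93 in WT. TRAV15-2-DV6-2 held 3.48% ± 2.47 in KO and 7.54% ± 0.348 in WT, and TRAV13-4-DV7 held 4.99% ± 2.42 in KO and 5.20% ± 2.06 in WT. The share of TRAV21/DV12 in the alpha chain passed its share in the delta chain in all 3 KO libraries of equal number, while in WT the delta share was higher in all 3. The 2 chains were amplified and scaled separately, so that these levels are set side by side only.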

How the data were processed

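The authors amplified each receptor chain from thymocyte RNA by 5′ RACE with constant-region primers, per the labels' protocols, and fastp is named in the submitters' processing notes. Neither the segment caller nor the build is stated in the sources used here, nor whether reads or clonotypes were counted. The deposited values are in percent of a library and were used as deposited, with no counts reconstructed. Of 24 libraries 12 (Tcra and Tcrd) were used. Positions and sequences were read from GENCODE M21 (GRCm38), where 116 of 117 V and 43 of 43 J segments matched by name. The members, lists and tests were chosen with earlier results of these data known.

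Shares were tested with limma 3.58.1 (R 4.3.3) on log2(percent + pseudocount), with the lowest nonzero share of the finest library as pseudocount, and mean J numbers on a linear scale, with Benjamini-Hochberg adjustment over all features tested and calls at 0.05. V segments, windows and pairs needed a mean of 0.1%, and mean J numbers and shares within the first window a mean of 0.5%. The joining ratio added the pseudocount to observed and expected shares. Single values had exact permutation tests over 20 arrangements. The fits were also run on simulated data with normal noise of equal spread in all features. Those data had no shares listed at 0 and no fixed sum, so they cannot show how the fits handle either. Tables and figures were made with Biopython 1.88, matplotlib 3.10.9, scipy 1.17.1, pandas 2.3.3 and numpy 2.4.6 in Python 3.11.15.

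The named pairs were the called ones and the 5 highest by mean of each segment, the neighbours all listed V segments from TRAV17 to the J segments and the 5 next upstream, the like segments the nearest 3, and in Tcrd V segments of at least 5% in a genotype. Alternatives were a pseudocount 10 times smaller, a larger one (0.117 for Tcra), no filter, leaving out a library, a replicate block, centring, pairs counted once, pairs at or above 0.117%, and near-identical copies summed. The measure relative to other V segments, leaving out both libraries numbered 1, and the tests of alpha against delta were added after the data were seen. Equal replicate numbers were treated as a possible pairing of the libraries where residuals correlated at over 0.1 for all 3 numbers. This held for V by J window shares (r = 0.219, 0.209 and 0.278, against at most 0.0105 between other numbers) and joining ratios (r = 0.142, 0.180 and 0.107), and not elsewhere. The pairing comes from this check, not from the labels. The p-values given for window shares and joining ratios are from fits with genotype only, except where the replicate block is named.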

Additional observations from a re-analysis of the deposited data

Results flagged for a closer look

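The effect of the genotype on TRAV21/DV12 differed between the chains. The log2 difference between KO and WT was 2.52 in Tcra and -0.63 in Tcrd as means of log2 shares, which differ by 3.14. A two-sided exact permutation of the genotype labels within each chain gave p = 0.015 over 400 arrangements, with 0.005 the smallest possible p. This treats the libraries of the chains as independent, which the labels do not settle. With libraries of equal genotype and number kept together in both chains, the exact permutation p was 0.1 over 20 arrangements, the smallest possible there. The log2 ratio of the Tcra share to the Tcrd share was 1.48, 1.50 and 1.21 in the KO libraries, against -1.94, -1.72 and -1.58 in the WT libraries. Both tests were chosen after the data were seen. All 3 KO libraries were higher than all 3 WT libraries in Tcra, while in Tcrd the KO libraries overlapped with the WT libraries. The chains were amplified separately, and the part of primers or resolution in the difference was not tested.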

How the results depend on the processing

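Directions of the 3 V segment shares held under every alternative tried, while many calls did not, and the cause was not tested. Over the Tcra V segments 4 calls became 1 with the smaller pseudocount, 18 with the larger one, 7 with no filter, 15 with the replicate block (3 higher, 12 lower), 9 with near-identical copies summed, 2 without both libraries numbered 1, 0 with each pair counted once, and 0 to 15 without 1 library. TRAV21/DV12 was not called with the smaller pseudocount (2.51, adjusted p = 0.0555), each pair counted once (1.40), pairs above the coarsest limit (1.87), without both libraries numbered 1 (2.35), and had 2.28 to 2.77 without 1 library, or 2.39 to 2.65 where a WT library was left out. TRAV19 was called with the larger pseudocount (1.50, adjusted p = 0.0344). The 28 calls of mean J number were 17 with each pair counted once and 13 with pairs above the coarsest limit, where TRAV17 turned to -2.76 and TRAV21/DV12 to -1.87 and TRAV19 gave no value, since few pairs are left. The 6 calls relative to other V segments were 0 with each pair counted once (TRAV17 -4.93, TRAV19 -6.48, TRAV21/DV12 -3.73), and TRAV17 was not called without both libraries numbered 1 (-12.3). The 89 window calls were 11 with the smaller pseudocount, 144 with no filter, 120 with the replicate block, 59 without both libraries numbered 1, 0 with each pair counted once and 0 to 99 without 1 library. The 0 joining ratio calls were 3 with the larger pseudocount. The 4 calls within the first window were 0 with the smaller pseudocount, 10 with a larger one, 9 with the replicate block and 0 to 5 without 1 library. The 72 pair calls were 5 with the smaller pseudocount, 140 with no filter, 36 with centring, 30 without both libraries numbered 1 and 7 to 69 without 1 library. Beside TRAV21/DV12 with TRAJ28 to TRAJ18, the replicate block changed no call of the named values.

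Signs turned in values that were not called. TRAV17 with TRAJ37 to TRAJ29 was 0.46 with centring and -1.92 to 0.85 without 1 library, and its joining ratio 0.14 with the larger pseudocount and -1.47 to 0.97 without 1 library. TRAV17 with TRAJ28 to TRAJ18 was -0.21 to 0.36, TRAV17 with TRAJ52 -0.20 to 1.85 and TRAV19 within the first window -0.14 to 0.83 without 1 library, the last also -0.26 without both libraries numbered 1. TRAV17 with TRAJ57 was -0.34 with centring, and TRAV21/DV12 with TRAJ17 to TRAJ10 was -0.24 with each pair counted once. Over pairs above the coarsest limit, the difference in J segments used was 4.67 for TRAV17 and 11.7 for TRAV21/DV12, against -5.33 and -0.33 over all pairs. The difference in profile distance kept its sign there. It was -46.6 for TRAV17 and -51.2 for TRAV21/DV12, against -20.8 and -30.3 over all pairs. Shares under 0.117% could not be seen in KO replicate 3.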
